A study of Homo sapiens with 7 samples.

Results

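The genes described here were the collagen and laminin chains of 501Mel, an established human melanoma cell line, chosen by their symbols: a collagen symbol names the type and the alpha chain (COL9A3 is chain alpha-3 of type IX), and a laminin symbol names an alpha (LAMA), beta (LAMB) or gamma (LAMC) chain. The table held 36 such genes among 21305, namely 24 collagens and 12 laminins. Of these, 26 genes (17 collagens and 9 laminins) had a mean of at least 10 normalized counts over the libraries and were tested, and 10 lay below this minimum. A further 20 symbols of this form were listed in the GENCODE annotation and were not analysed here, including COL4A1, the partner chain of COL4A2, and COL6A3, the partner of COL6A1 and COL6A2.

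RNA-seq had been carried out on 501Mel cells with a lentiviral short hairpin RNA (shRNA) that was switched on by doxycycline in every group, the control included. The groups compared were shlacZ, a hairpin against the bacterial gene lacZ that served as the control (n = 3 libraries), and sh4 and sh8 (n = 2 each), hairpins against the long non-coding RNA GRASLND. Each hairpin was carried by a puromycin-selected pool of transduced cells, so that hairpin and cell pool cannot be told apart. The labels number the replicates without saying whether these were separate cultures, and p-values therefore measure the spread between these libraries, which may be technical.

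Collagens and laminins are secreted proteins of the extracellular matrix. A laminin is assembled from an alpha, a beta and a gamma chain and polymerises into the sheet on which a basement membrane is built. Collagen chains wind around each other into rods, which form fibrils, decorate fibrils (the FACIT types, such as IX, XII, XIX and XXII), build beaded filaments (type VI), or span the cell membrane (types XIII and XXV). In skin, melanocytes rest on the basement membrane, and melanoma cells meet collagens and laminins through integrins and other receptors.

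Promoter sequences are shown for LAMC1, LAMB1, LAMB2 and LAMA5, the laminin chains with a control mean over 100 whose transcripts were higher in sh4 than in shlacZ libraries. Each sequence covers the 250 bases before and the first 50 bases after the transcription start, 5′ to 3′ on the gene's own strand, from RefSeq on GRCh38.p14. Capitals mark the GC box GGGCGG on either strand (CCGCCC on the printed strand where the box lies on the other). The windows are chr1:183023170-183023469 (plus strand) for LAMC1, chr7:108003112-108003411 (minus strand) for LAMB1, chr3:49133001-49133300 (minus strand) for LAMB2 and chr20:62367263-62367562 (minus strand) for LAMA5.
LAMC1: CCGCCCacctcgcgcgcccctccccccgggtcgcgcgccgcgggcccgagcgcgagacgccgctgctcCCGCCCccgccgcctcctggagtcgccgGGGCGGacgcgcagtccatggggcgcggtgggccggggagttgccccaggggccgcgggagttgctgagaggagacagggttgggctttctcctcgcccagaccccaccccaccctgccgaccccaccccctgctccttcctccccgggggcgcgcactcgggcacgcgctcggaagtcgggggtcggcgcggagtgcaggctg
LAMB1: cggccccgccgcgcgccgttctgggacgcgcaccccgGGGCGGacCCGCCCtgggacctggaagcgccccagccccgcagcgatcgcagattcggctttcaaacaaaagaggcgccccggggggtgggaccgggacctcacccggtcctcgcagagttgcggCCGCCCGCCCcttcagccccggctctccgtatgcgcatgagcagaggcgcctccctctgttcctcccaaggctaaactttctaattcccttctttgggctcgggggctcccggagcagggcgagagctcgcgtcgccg
LAMB2: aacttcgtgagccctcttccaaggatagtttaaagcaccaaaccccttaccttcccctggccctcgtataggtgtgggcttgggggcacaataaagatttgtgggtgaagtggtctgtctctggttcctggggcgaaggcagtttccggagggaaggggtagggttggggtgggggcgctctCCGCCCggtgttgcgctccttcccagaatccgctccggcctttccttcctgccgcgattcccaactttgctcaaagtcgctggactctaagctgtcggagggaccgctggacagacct
LAMA5: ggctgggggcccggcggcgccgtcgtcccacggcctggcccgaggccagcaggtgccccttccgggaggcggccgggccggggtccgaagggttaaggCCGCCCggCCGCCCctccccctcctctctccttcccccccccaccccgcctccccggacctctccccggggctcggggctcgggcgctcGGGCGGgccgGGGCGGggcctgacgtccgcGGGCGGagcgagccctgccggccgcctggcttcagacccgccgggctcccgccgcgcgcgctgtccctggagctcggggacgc
The GC box occurred 3 times in the LAMC1 window, 4 times in LAMB1 (2 of them overlapping, counted separately), once in LAMB2 and 5 times in LAMA5. Its letters were present in 45.0% of all 35116 promoter windows of this length in the table. They were also present in at least 1 window of 18 of the 27 members with a promoter entry. These members held 36 windows, so the count per member and the share per window are not like for like. The E-box CACGTG (7.26% of all windows), the M-box core CATGTG (11.1%), the AP-1 site TGANTCA (7.71%), the TATA box TATAAA (11.5%) and the TEAD site GGAATG (14.0%) were also searched on both strands and were not found in these 4 windows. A match describes letters only, and no binding was measured.

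The libraries held 13337317 to 22855232 reads. The targeted GRASLND was lower in every knockdown library, at 175 and 131 normalized counts (sh4) and 227 and 163 (sh8) against 309, 330 and 290 (shlacZ). Its pooled log2 fold change was -0.85 ± 0.19 (SE, limma adjusted p = 0.0402). By hairpin it was -1.02 under sh4 (limma adjusted p = 0.00662) and -0.68 under sh8, which missed the threshold (limma adjusted p = 0.110). The direct difference of sh4 from sh8 in GRASLND was -0.34 (limma adjusted p = 0.421). The exact two-sided permutation test on the difference of the means gave p = 0.0571, the smallest it can give with 4 against 3. All 7 melanocytic markers searched (MITF, MLANA, PMEL, TYR, DCT, TYRP1 and SOX10) were present, and their summed level was 135575 to 146343 normalized counts in shlacZ, 51868 to 59737 in sh4 and 101544 to 104484 in sh8 libraries. MLANA, PMEL, DCT, TYRP1 and SOX10 were lower in all knockdown than in all shlacZ libraries. MITF was lower in sh4 and overlapped between shlacZ and sh8. TYR did not follow the sum, with means of 8803 in shlacZ, 9736 in sh4 and 10257 in sh8. Of 8 fibroblast markers 3 had a row, with sums of 4.19 to 22.8, and the 4 endothelial and 4 leukocyte markers had none. Of 5 keratinocyte markers only KRT10 had a row. The first shlacZ library differed more from the other shlacZ libraries (mean chi-square per gene 23.1 and 23.5) than these did from each other (7.25), and results that change without it are given below.

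Laminin transcripts outweighed collagen transcripts in every library. Laminin members took 0.0997% to 0.104% of all normalized counts in shlacZ, 0.156% and 0.175% in sh4, and 0.112% and 0.121% in sh8 libraries. Collagen members took 0.0151% to 0.0169% in shlacZ, 0.0207% and 0.0157% in sh4, and 0.0165% and 0.0133% in sh8. The laminin share was thus higher in all knockdown than in all shlacZ libraries, whereas the collagen shares overlapped. In such bulk RNA, fewer cells of one kind and less RNA per cell cannot be told apart.

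Divided by the length of the canonical transcript, LAMC1 was the most abundant member, with a mean level of 1321 normalized counts per kb over the 7 libraries. LAMA1 (624), LAMB1 (484) and LAMB2 (260) followed, then COL19A1 (192) and COL9A3 (140), and the remaining members lay at or below 52.0 per kb. With the length of all annotated exons in place of the canonical transcript, LAMB1 ranked 5 instead of 3. LAMA1, LAMB1 and LAMC1 are the chains of laminin-111. Among the alpha chains, LAMA1 made up 87.8% to 89.8% of the per-kb sum in shlacZ, 78.8% and 88.4% in sh4, and 88.8% and 89.2% in sh8 libraries. LAMC1 made up at least 98.8% of the gamma sum in every library. The gamma sum per kb was 1060 to 1125 in shlacZ, 1755 and 1867 in sh4, and 1141 and 1245 in sh8. The beta sum was 401 to 514 in shlacZ, 942 and 1317 in sh4, and 755 and 835 in sh8. The beta and gamma sums of all knockdown libraries thus lay above those of all shlacZ libraries. The alpha sum did not separate the groups (654 to 792 in shlacZ, 650 and 797 in sh4, 676 and 710 in sh8).

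**Figure D1:**
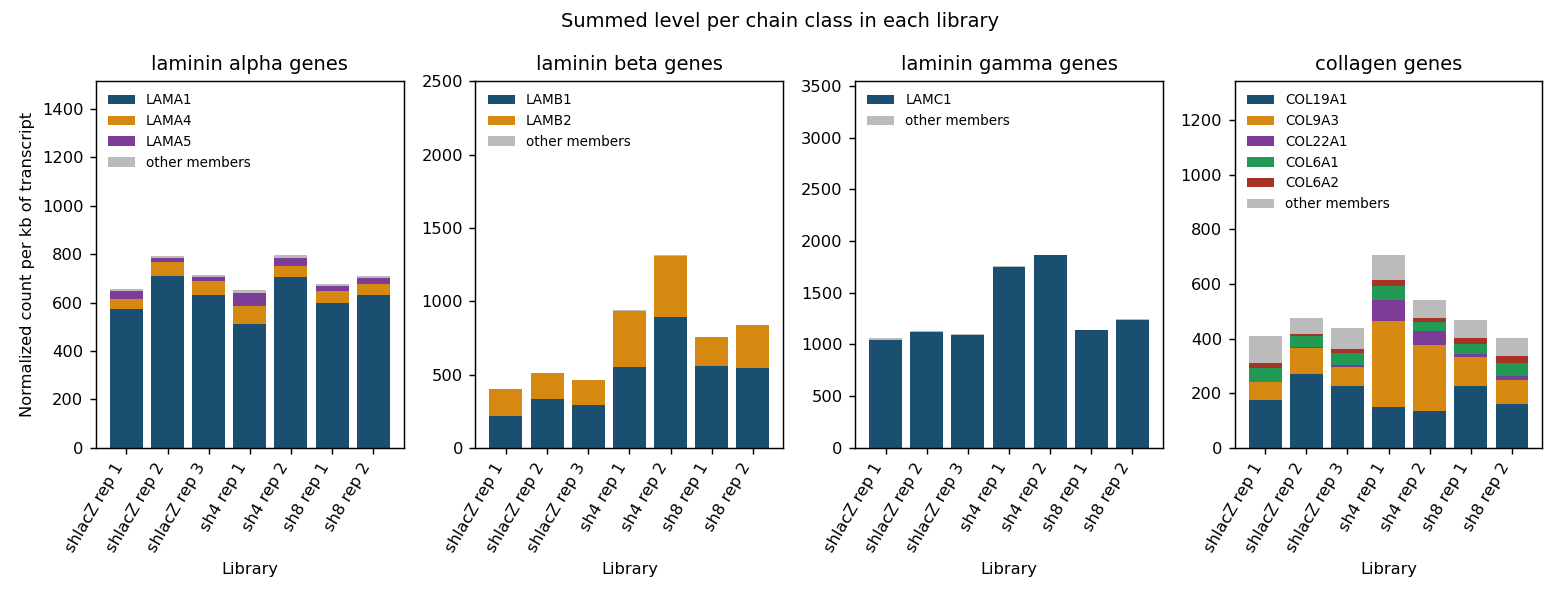
Summed level of each chain class per library (y axis, normalized counts per kb of canonical transcript; x axis, the 7 libraries), with the main genes as coloured segments and the rest in grey. The y scale differs between panels. The beta panel rises from at most 514 in shlacZ to at least 755 in the knockdown libraries, while the alpha panel overlaps between groups.

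Comparisons with the control were made for both hairpins pooled, as in the study's design, and for each hairpin on its own, and these share the shlacZ libraries. Calls required a log2 fold change of more than 1 in size and an adjusted p (Benjamini-Hochberg, over all 15420 tested genes) below 0.05. Under sh4, 8 of 26 members were called against 8.16% of all genes. The members higher in sh4 were LAMA5, LAMB1, LAMB2, LAMB3, COL9A3, COL13A1 and COL22A1 (7, where 4.79% of all genes were called higher), and LAMC3 was lower (1, where 3.37% were called lower). By adjusted p alone the count was 10 (22.5% of all genes), 8 higher with LAMC1 added (10.5%) and 2 lower with COL19A1 added (11.9%). The median log2 fold change of the 26 members was 0.40, against -0.01 over all tested genes. Laminins supplied 6 of the 10, out of 9 tested (66.7%), and collagens 4, out of 17 tested (23.5%, close to the 22.5% of all genes). By calls the shares were 55.6% of laminins and 17.6% of collagens, against 8.16% of all genes. COL13A1 and LAMB3 passed the minimum mean through their sh4 level. Among the 21 members with a shlacZ mean of at least 10, 6 were called and 8 passed by adjusted p alone, with a median log2 fold change of 0.21. The sum of the melanocytic markers was lowest in these same sh4 libraries, and its part in the member changes was not tested.

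Under sh8, no member was called (0 of 26, against 1.15% of all genes), and 1, LAMB1, passed by adjusted p alone (2.92%). At an unadjusted limma p under 0.05 there were 7 of 26 members, against 2858 of all 15420 tested genes. With limma-voom on the recovered reads 1 member was called, LAMB1. The median log2 fold change was 0.03. With both hairpins pooled, 2 members were called, LAMB1 and COL13A1 (1.99% of all genes), the same number as by adjusted p alone (4.61%). Of these, COL13A1 passed the minimum mean through the knockdown libraries, and among the 21 members with a shlacZ mean of at least 10 the count was 1, LAMB1. All knockdown libraries lay above all shlacZ libraries for 6 of 26 members (10.2% of all genes), namely LAMC1, LAMB1, LAMB2, LAMB3, COL13A1 and COL22A1. Of these, LAMB3 and COL13A1 passed the minimum mean through the libraries where they were high, which favours such a position. All knockdown libraries lay below all shlacZ libraries for 3 (11.0%), LAMC3, COL12A1 and COL25A1. Without the first shlacZ library the pooled comparison called 0 members, sh4 called 9 and sh8 called 1, COL22A1.

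Between the hairpins, 2 of the 21 members with a shlacZ mean of at least 10 were called, and 4 passed by adjusted p alone. Among all 26, which include LAMB3, 3 were called, LAMB3, COL9A3 and COL22A1 (3.19% of all genes). With LAMB2 and LAMC1, 5 passed by adjusted p alone (7.0%). All 5 were higher in sh4. The count called fell to 0 without the first sh4 or the second sh8 library, and to 1, COL9A3, without the second sh4 or the first sh8 library.

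**Figure D2:**
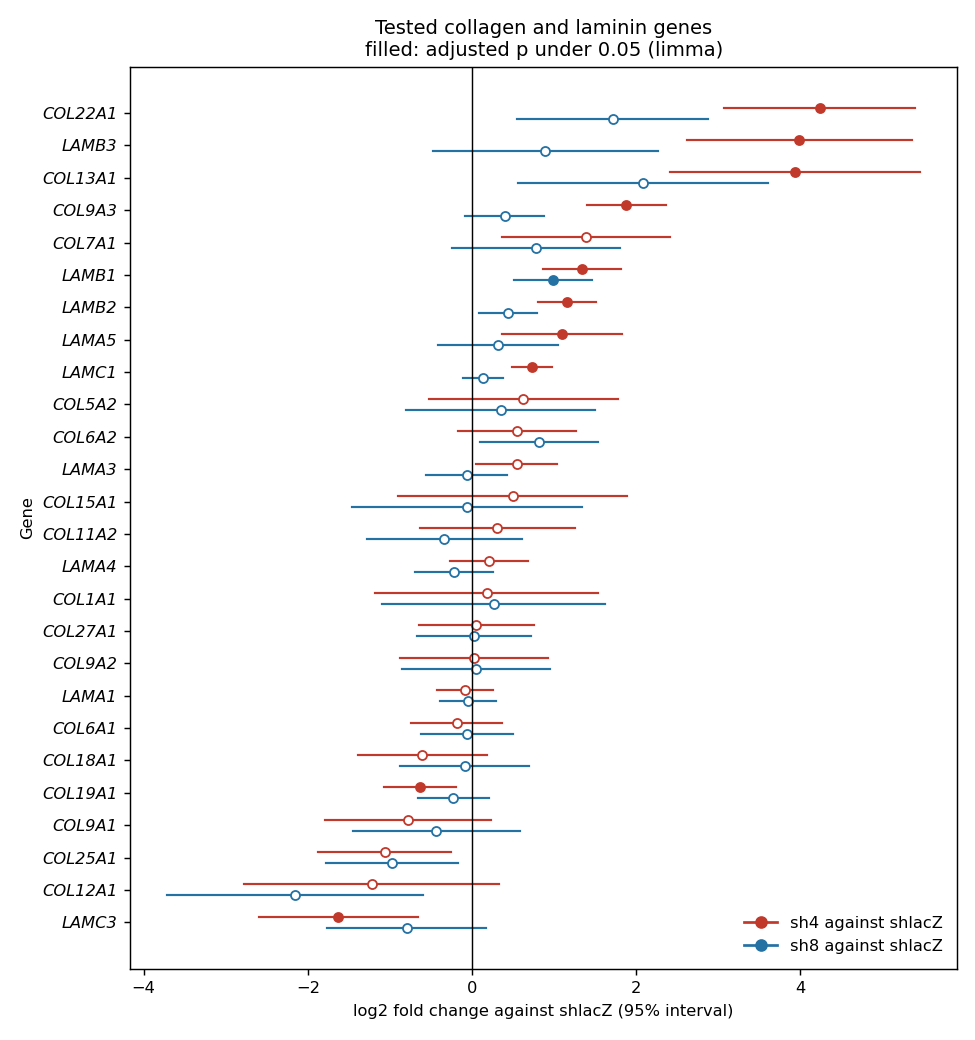
Log2 fold change against shlacZ (x axis) of the 26 tested genes (y axis, ordered by the sh4 value) for sh4 (red) and sh8 (blue), as points with 95% intervals from limma. Filled points have an adjusted p under 0.05, 10 for sh4 and 1 for sh8, and both sets of points use the same shlacZ libraries.

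LAMB1 (ENSG00000091136, chr7:107923799-108003213, minus strand) encodes laminin beta-1, a chain of laminin-111 and laminin-411. It measured 1246, 1881 and 1648 normalized counts in shlacZ, 3128 and 5047 in sh4, and 3140 and 3070 in sh8 libraries. Every knockdown library lay above every shlacZ library, and the second sh4 library stood above the other knockdown libraries, which were nearly equal. The log2 fold change was 1.34 ± 0.21 under sh4 (2.53-fold, limma adjusted p = 0.00225) and 0.98 ± 0.21 under sh8 (1.98-fold, limma adjusted p = 0.0404). The pooled value was 1.16 ± 0.20 (limma adjusted p = 0.0182). The direct difference of sh4 from sh8 was 0.36 with a 95% interval from -0.17 to 0.88 (limma adjusted p = 0.419). The rise under sh8 missed the threshold when either sh8 library, or shlacZ replicate 2 or 3, was left out, and the pooled rise when either of the same shlacZ replicates was. Without shlacZ replicate 1 or sh4 replicate 2 the pooled log2 fold change of LAMB1 was 0.996 and 0.988, just short of a call, and under sh4 it was 0.995 without sh4 replicate 2. The 3′ part of LAMB1 overlaps DLD on the opposite strand, and DLD changed by 0.26 under sh4 (limma adjusted p = 0.198).

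LAMB2 (ENSG00000172037, chr3:49121114-49133118, minus strand) encodes laminin beta-2, an alternative beta chain found in laminins of muscle, nerve and kidney. Its levels were 1026, 1024 and 987 normalized counts in shlacZ, 2171 and 2352 in sh4, and 1130 and 1658 in sh8. The shlacZ libraries lay close together, the sh4 libraries far above them, and the sh8 libraries in between. The log2 fold change was 1.16 ± 0.16 under sh4 (2.23-fold, limma adjusted p = 9.98e-04) and 0.43 ± 0.16 under sh8 (limma adjusted p = 0.180). The sh4 level exceeded the sh8 level by 0.72 ± 0.17 (limma adjusted p = 0.0351), which missed the threshold without either sh4 library, sh8 replicate 1, or shlacZ replicate 2 or 3.

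LAMC1 (ENSG00000135862, chr1:183023420-183145592, plus strand) encodes laminin gamma-1, the gamma chain of most laminins. It measured 8305, 8878 and 8655 normalized counts in shlacZ, 13882 and 14781 in sh4, and 9007 and 9833 in sh8. The sh4 libraries stood well apart, and the sh8 libraries lay just above the highest shlacZ library. The rise under sh4 was 0.73 ± 0.11 on the log2 scale (1.66-fold, limma adjusted p = 0.00157), short of the fold needed for a call. Under sh8 the value was 0.13 with a 95% interval from -0.12 to 0.37 (limma adjusted p = 0.574). The hairpins differed by 0.61 ± 0.12 (limma adjusted p = 0.0157), a difference that missed the threshold without any 1 of the sh4 and sh8 libraries.

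LAMB3 (ENSG00000196878, chr1:209614870-209652425, minus strand) encodes laminin beta-3, a chain of the anchoring laminin of epidermis. It had 1 read in each shlacZ library (1.03, 1.05 and 0.87 normalized counts), against 23.7 and 38.8 normalized counts in sh4 and 2.64 and 2.73 in sh8. The transcript was close to the detection limit in shlacZ and low in sh8, and the sh4 libraries stood far above both. By read shares, sh4 (73 reads) exceeded shlacZ (3 reads) 35.9-fold, with an exact 95% counting interval of 11.8 to 178, and sh8 (5 reads) 2.80-fold (0.544 to 18.0). The sh4 log2 fold change was 3.98 ± 0.61 (limma adjusted p = 0.00187) and the difference from sh8 3.09 ± 0.67 (limma adjusted p = 0.0237). Its partner chain LAMA3 measured 77.4, 90.1 and 85.3 normalized counts in shlacZ, 110 and 138 in sh4, and 85.7 and 75.5 in sh8. Both sh4 values of LAMA3 lay above the shlacZ values, at a log2 fold change of 0.54 (limma adjusted p = 0.106).

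LAMA5 (ENSG00000130702, chr20:62307955-62367312, minus strand) encodes laminin alpha-5, the alpha chain of laminin-511 in mature basement membranes. It measured 350, 155 and 204 normalized counts in shlacZ, 621 and 366 in sh4, and 249 and 309 in sh8. The first shlacZ library came close to the second sh4 library, and the sh8 values lay within the shlacZ range. The sh4 log2 fold change was 1.09 ± 0.33 (2.13-fold, limma adjusted p = 0.0386), and it missed the threshold without any 1 of the libraries other than shlacZ replicate 1. Under sh8 it was 0.31 (limma adjusted p = 0.656). LAMA5 overlaps ADRM1 on the opposite strand, which changed by -0.13 under sh4 (limma adjusted p = 0.751).

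LAMC3 (ENSG00000050555, chr9:131009174-131094473, plus strand), laminin gamma-3, was the only laminin that fell. It measured 93.9, 38.8 and 58.3 normalized counts in shlacZ, 27.1 and 12.7 in sh4, and 34.3 and 33.7 in sh8. All knockdown libraries lay below all shlacZ libraries, the sh8 values only slightly. The sh4 log2 fold change was -1.63 ± 0.43 (limma adjusted p = 0.0237), which missed the threshold without shlacZ replicate 3 or sh4 replicate 2. The sh8 value was -0.80 (limma adjusted p = 0.369).

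LAMA1 (ENSG00000101680, chr18:6941742-7117797, minus strand), the main alpha chain, measured 5537, 6861 and 6097 normalized counts in shlacZ, 4939 and 6795 in sh4, and 5787 and 6105 in sh8. The 3 groups overlapped. Its log2 fold change was -0.08 under sh4 (95% interval -0.42 to 0.26, limma adjusted p = 0.741) and -0.05 under sh8 (95% interval -0.39 to 0.29, limma adjusted p = 0.900). LAMA4, the alpha chain of vascular laminins, measured 303, 419 and 398 in shlacZ, 531 and 343 in sh4, and 331 and 305 in sh8. Only the first sh4 library stood above the shlacZ range, and the sh4 log2 fold change was 0.21 (limma adjusted p = 0.534). LAMB4 lies 20.3 kb from LAMB1 on the same strand and had 20 reads in all libraries, with 9.03 and 4.48 normalized counts in sh4, none in sh8 and 0.87 to 3.14 in shlacZ.

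**Figure D3:**
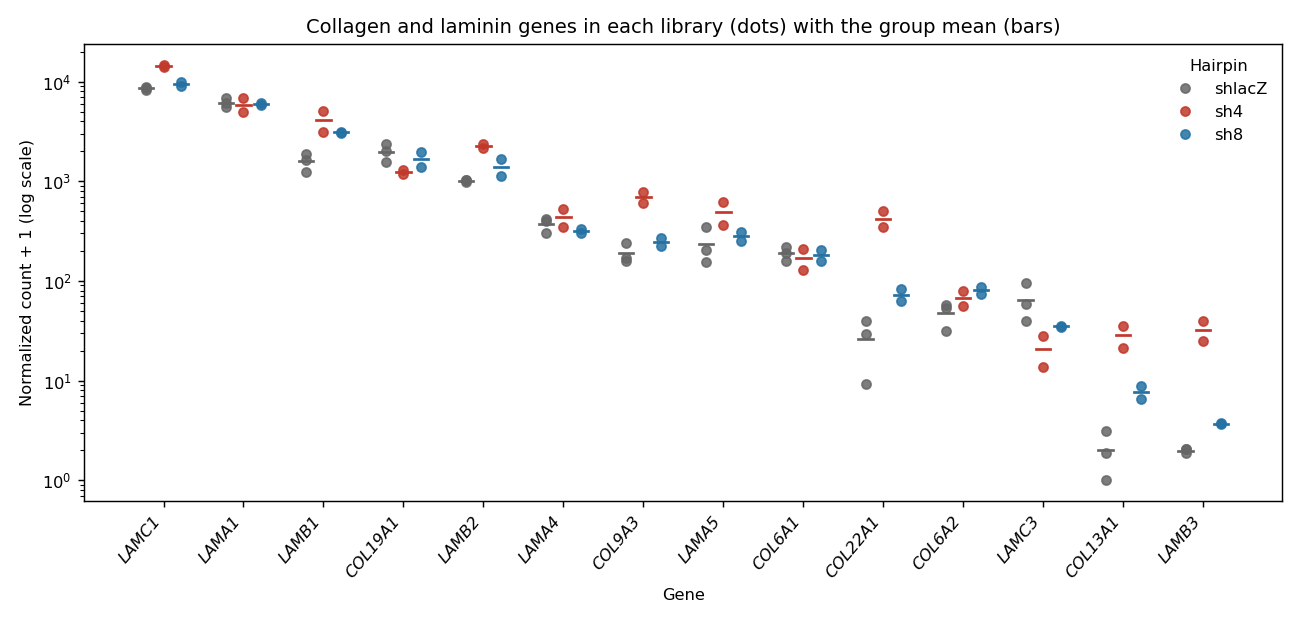
Normalized counts plus 1 (y axis, log scale) of 14 collagen and laminin genes (x axis, ordered by mean), with 1 dot per library and a bar at the mean of each group. The red sh4 dots stand above the grey shlacZ dots for LAMC1, LAMB1, LAMB2, LAMA5, COL9A3, COL22A1, COL13A1 and LAMB3 and below them for COL19A1 and LAMC3.

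The most abundant collagens per kb were COL19A1 and COL9A3, both of FACIT types, followed by COL6A1 (42.9). COL19A1 (ENSG00000082293, chr6:69866556-70212468, plus strand), type XIX, measured 1547, 2361 and 1995 normalized counts in shlacZ, 1310 and 1190 in sh4, and 1975 and 1392 in sh8. The sh4 values lay below the shlacZ range, and the sh8 values straddled its lower end. Under sh4 it decreased by 0.63 ± 0.20 (log2, limma adjusted p = 0.0426), which missed the threshold under 8 of 17 alternatives. COL9A1 ends 3571 bases away from it on the opposite strand and measured 47.1 to 100 in shlacZ, 73.4 and 25.4 in sh4, and 51.4 and 59.2 in sh8. The groups overlapped for COL9A1 (limma adjusted p = 0.252 under sh4).

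COL9A3 (ENSG00000092758, chr20:62816244-62841159, plus strand) encodes a chain of type IX collagen, a cartilage collagen. It measured 158, 239 and 170 normalized counts in shlacZ, 786 and 598 in sh4, and 266 and 225 in sh8. The sh4 libraries stood far above the rest, and 1 sh8 library lay within the shlacZ range. The log2 fold change was 1.88 ± 0.22 under sh4 (3.68-fold, limma adjusted p = 4.30e-04) and 0.40 ± 0.22 under sh8 (limma adjusted p = 0.367), and the hairpins differed by 1.48 ± 0.24 (limma adjusted p = 0.00651). Its partner chain COL9A2 measured 51.6, 23.0 and 32.2 in shlacZ, 45.2 and 26.1 in sh4, and 38.2 and 31.9 in sh8. COL9A2 overlapped between all groups, at a log2 fold change of 0.03 under sh4 (95% interval -0.87 to 0.92). COL9A3 overlaps TCFL5 on the opposite strand, which moved the other way under sh4 (log2 fold change -1.22, limma adjusted p = 7.35e-04). Whether the counting used the strand of the reads was not stated. Of the per-kb collagen sum, COL19A1 made up 43.3% to 56.9% in shlacZ, 21.2% and 25.2% in sh4, and 48.2% and 39.6% in sh8. COL9A3 made up 15.5% to 20.2% in shlacZ, 44.5% and 44.2% in sh4, and 22.7% and 22.4% in sh8, so that it replaced COL19A1 as the largest collagen in both sh4 libraries.

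COL22A1 (ENSG00000169436, minus strand), type XXII, a FACIT collagen of tissue junctions such as the myotendinous junction, measured 8.26, 28.3 and 38.3 normalized counts in shlacZ, 499 and 343 in sh4, and 62.0 and 81.9 in sh8. The groups did not overlap, with shlacZ lowest, sh8 in between and sh4 highest. The log2 fold change was 4.24 ± 0.52 under sh4 (18.9-fold, limma adjusted p = 5.91e-04) and 1.72 ± 0.52 under sh8 (limma adjusted p = 0.114). The hairpins differed by 2.52 ± 0.57 (limma adjusted p = 0.0278). The pooled value of 2.98 ± 0.74 missed the threshold (limma adjusted p = 0.0518).

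COL13A1 (ENSG00000197467, chr10:69801880-69964275, plus strand) encodes a transmembrane collagen of cell adhesions and the neuromuscular junction. It measured 0, 2.09 and 0.87 normalized counts in shlacZ, 20.3 and 34.3 in sh4, and 7.91 and 5.46 in sh8. The shlacZ values stood on 3 reads in total, and the groups did not overlap. By read shares the ratio was 31.5 for sh4 (64 reads, exact 95% counting interval 10.3 to 157) and 6.71 for sh8 (12 reads, interval 1.81 to 37.0). The log2 fold change was 3.93 ± 0.68 under sh4 (limma adjusted p = 0.00331), 2.08 ± 0.68 under sh8 (limma adjusted p = 0.139) and 3.01 ± 0.71 pooled (limma adjusted p = 0.0435). The pooled call was lost under 10 of 16 alternatives, and the sh4 rise without the second sh4 library. The direct difference between the hairpins was 1.86 with a 95% interval from 0.19 to 3.52 (limma adjusted p = 0.176).

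The type VI chains, which assemble with each other into beaded filaments, overlapped between shlacZ and sh4. COL6A1 measured 216, 158 and 191 normalized counts in shlacZ, 210 and 128 in sh4, and 158 and 203 in sh8. COL6A2 measured 55.7, 30.4 and 52.2 in shlacZ, 77.9 and 55.2 in sh4, and 72.5 and 86.5 in sh8. Both sh8 values of COL6A2 lay above the shlacZ values, at a log2 fold change of 0.81 (95% interval 0.09 to 1.54, limma adjusted p = 0.218).

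In all, 16 of the 26 tested members passed the adjusted p in none of the 4 comparisons, with adjusted p-values from 0.0552 upward in sh4 and from 0.135 upward in sh8. COL7A1, the anchoring fibril collagen, gave the lowest of these under sh4, at 39.2, 15.7 and 25.2 normalized counts in shlacZ, 104 and 43.3 in sh4, and 38.2 and 50.1 in sh8. COL25A1, a transmembrane collagen, measured 92.9, 49.2 and 49.6 in shlacZ, 30.5 and 26.9 in sh4, and 25.0 and 37.3 in sh8. Every knockdown library of COL25A1 lay below every shlacZ library, at a pooled log2 fold change of -1.02 ± 0.30 (limma adjusted p = 0.0824). COL12A1, a FACIT collagen of fibril surfaces, measured 25.8, 47.1 and 13.9 in shlacZ, 11.3 and 9.70 in sh4, and 11.9 and 1.82 in sh8. These too did not overlap, and the pooled value was -1.69 ± 0.62 (limma adjusted p = 0.135). COL1A1 and COL5A2, fibrillar chains, and COL15A1, of the vascular basement membrane, had shlacZ means under 10, and their log2 fold changes lay between -0.06 and 0.62 in either hairpin. The 10 members below the minimum had 12 to 60 reads over all libraries, among them COL4A2, a chain of the basement membrane network, with 15. These were not tested, apart from an alternative fit without the minimum, in which LAMB4 was called between the hairpins (8 and 6 reads in sh4, 0 in both sh8 libraries) and no other of the 10 was called in any comparison.

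Genes around collagens and laminins were taken from 4 lists written from general knowledge. Of the collagen and laminin receptors, 15 were tested, and under sh4 6 rose and 2 fell by adjusted p alone (22.5% of all genes), while 2 rose under sh8 (2.92%). The receptors that fell were the syndecan SDC3 (log2 fold change -0.55) and RPSA, a ribosomal protein that also binds laminin (-0.84). Of the basement membrane and matrix partners, 14 were tested, with 6 higher and 2 lower under sh4 and 2 higher under sh8. The 6 include MATN2 and FBN1, which met the minimum mean through the knockdown libraries. Others in this list were ECM1 (0.95) and AGRN, agrin (0.71), which rose, HSPG2, perlecan (-0.59), which fell, and SPARC (0.88), which rose under sh8. Of the collagen synthesis and assembly genes, 21 were tested, with 5 higher and 0 lower under sh4 and 1 higher under sh8. The sh4 share of 23.8% was close to the 22.5% of all genes, and the sh8 share was 4.76% against 2.92%. The 5 were COLGALT2, the procollagen export factor TMEM131 (0.96), the prolyl hydroxylase subunit P4HA2 (0.93), the procollagen protease BMP1 (0.64) and the chaperone FKBP10 (0.56). Of the TGF-beta and matrix regulators, 15 were tested, with 5 higher and 2 lower under sh4 and 2 higher under sh8, among them TGFB1 (0.52), a ligand that rose, and the repressor SKI (-0.40), which fell, both under sh4. The list medians under sh4 were 0.72, 0.64, 0.10 and 0.21 on the log2 scale, in this order, against -0.01 over all genes.

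The receptors that rose under sh4 included the collagen-binding integrin chains ITGA10 and ITGA1. The list also held the collagen-binding ITGA2 and ITGA11 and the laminin-binding ITGA7, which were not among those that rose. ITGA10 measured 10.3, 11.5 and 13.0 normalized counts in shlacZ, 1522 and 975 in sh4, and 38.2 and 33.7 in sh8. Its log2 fold changes were 6.60 under sh4 (limma adjusted p = 6.27e-06) and 1.55 under sh8 (limma adjusted p = 0.0184). ITGA1 measured 129, 130 and 157 in shlacZ, 1561 and 1858 in sh4, and 361 and 500 in sh8, and its log2 fold changes were 3.61 under sh4 (limma adjusted p = 1.91e-05) and 1.61 under sh8 (limma adjusted p = 0.00277). Both genes were higher in all knockdown libraries and highest in sh4. The laminin-binding chains ITGA3 (log2 fold change 1.42, limma adjusted p = 0.00111) and ITGA6 (1.39, limma adjusted p = 0.00125), the laminin alpha-5 receptor BCAM (1.46, limma adjusted p = 0.00601) and the syndecan SDC2 (1.72, limma adjusted p = 0.00129) rose under sh4. Under sh8 the values of these 4 genes lay between -0.07 and 0.74, and none passed. The rise of BCAM was lost without sh4 replicate 1, and that of ITGA10 under sh8 without either sh8 library or shlacZ replicate 2.

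Among the matrix partners, MATN3, a cartilage matrilin, rose by 2.56 under sh4 (limma adjusted p = 1.10e-04) and by 1.34 under sh8 (limma adjusted p = 0.0128) on the log2 scale. FREM2, of the basement membrane of developing epithelia, rose by 1.02 under sh4 (limma adjusted p = 0.00478). MATN2 (2.15, limma adjusted p = 0.0422) and the microfibril protein FBN1 (1.64, limma adjusted p = 0.0299) rose under sh4 from fewer than 10 normalized counts in each shlacZ library. Both thus met the minimum mean through the knockdown libraries, which favours such a rise. COLGALT2, which adds galactose to collagen hydroxylysine, measured 391, 403 and 425 in shlacZ, 1300 and 1254 in sh4, and 583 and 723 in sh8, and rose under both hairpins (1.65, limma adjusted p = 1.03e-04 for sh4, and 0.68, limma adjusted p = 0.0318 for sh8). LOXL2, a lysyl oxidase that crosslinks collagen, lay below shlacZ in sh4 and above it in sh8, but neither difference from shlacZ passed the adjusted p. Between the hairpins LOXL2 differed by -1.97 (limma adjusted p = 0.0486). On leaving out single libraries, FREM2 missed the threshold without sh4 replicate 2, MATN2 and FBN1 without either sh4 library or shlacZ replicate 2 or 3, and MATN3 under sh8 without either sh8 library or shlacZ replicate 2. The LOXL2 difference and the COLGALT2 rise under sh8 were each lost without any 1 library other than shlacZ replicate 1.

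Of the TGF-beta and matrix regulators, SMAD3, a signal transducer of TGF-beta receptors, rose by 1.60 under sh4 (limma adjusted p = 2.41e-04) and by 0.94 under sh8 (limma adjusted p = 0.0172). The receptor TGFBR2 rose by 1.23 under sh4 (limma adjusted p = 0.00350), whereas the ligand TGFB2 fell by 2.36 (limma adjusted p = 0.0117). TGFBI rose by 1.76 under sh4 (limma adjusted p = 0.0302). CCN2, a matricellular protein, rose by 1.52 under sh8 (limma adjusted p = 0.0380), and its sh4 value was 0.92 (limma adjusted p = 0.0692). The sh4 changes of TGFBR2 and TGFB2 were lost without sh4 replicate 2, and that of TGFBI without either sh4 library or shlacZ replicate 3. Under sh8, SMAD3 was lost without sh8 replicate 2 or shlacZ replicate 2, and CCN2 without any 1 library other than shlacZ replicates 1 and 2.

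**Figure D4:**
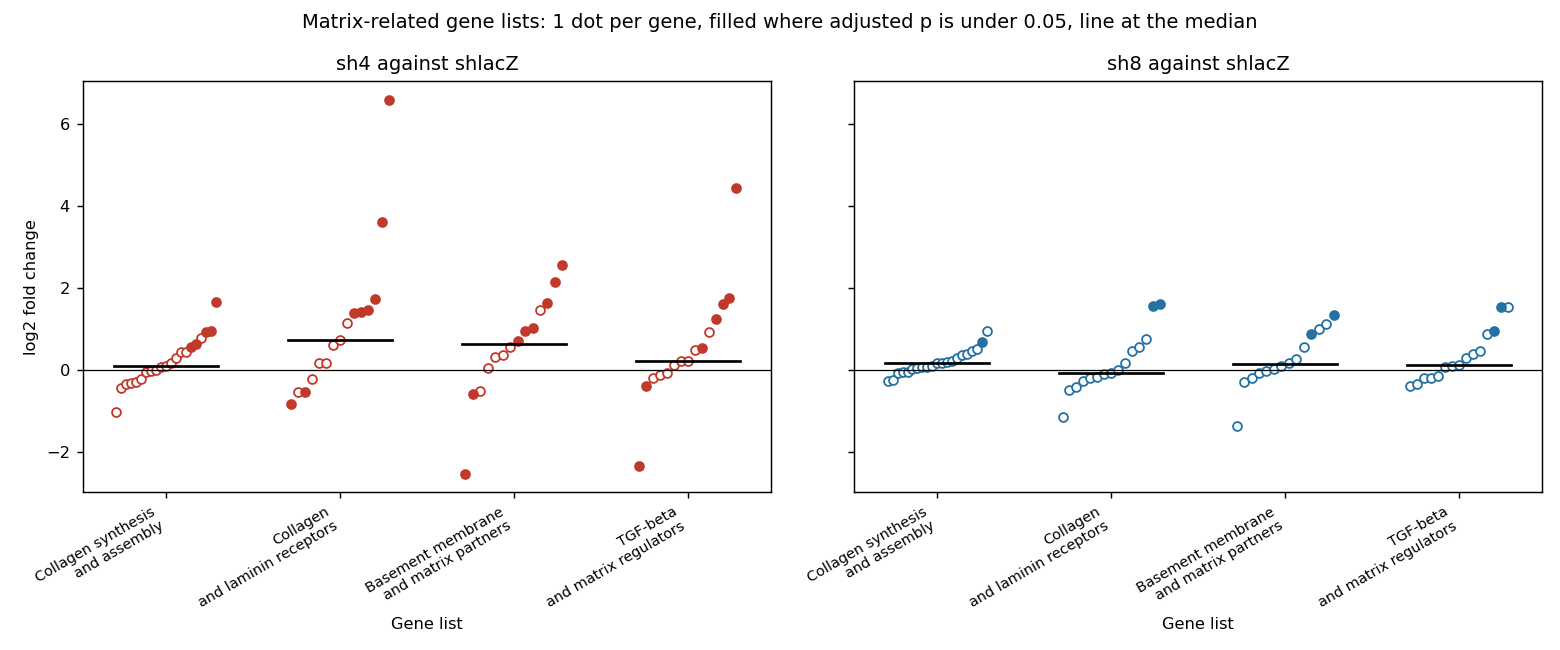
Log2 fold change against shlacZ (y axis) of each tested gene in the 4 lists (x axis) for sh4 (left) and sh8 (right). Filled dots have an adjusted p under 0.05 and the black line is the list median, 0.72 for receptors under sh4 and -0.07 under sh8.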

How the data were processed

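RNA had been depleted of ribosomal RNA and sequenced as read pairs from stranded libraries. Reads were trimmed with Cutadapt, aligned to hg38 with STAR and quantified with Salmon in the study; versions and the annotation release are not given in the sources used here. The authors deposited normalized counts, that is, counts divided by 1 size factor per library by DESeq2, in 1 table with 0 columns of other samples. Such scaling would hide a change shared by most transcripts. Dividing by the value of 1 read gave whole numbers within 0.01 for 100% of the values, and these reads were used for depth, counting intervals and 1 alternative test. Intervals cover counting error only.

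Coordinates and transcript lengths came from GENCODE release 44 on hg38 (21281 gene identifiers matched). limma 3.58.1 (R 4.3.3) with a variance trend was fitted to log2(normalized count + 1) of 15420 genes (mean at least 10), which understates the change of low genes. Knockdown (n = 4) and shlacZ (n = 3) were compared in a fit with 2 levels, and single hairpins in a fit with 3 groups. Thresholds followed the study. The fits were tested on simulated data.

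Members and lists were chosen with earlier results of these data known. Values per library are given for members with an adjusted p under 0.05 in any comparison, the 5 with the highest level per kb and partner chains of named members. List genes were named at an adjusted p under 0.05 and a log2 fold change over 1 in size, up to 6 per list. COL7A1, COL12A1, COL25A1, COL9A1, COL9A2, LAMA3, LAMB4, COL4A2 and the list genes given without a p-value were added after their values were seen. Some genes that the rule would name are not reported here. Single genes were followed through the alternatives where they had passed the adjusted p. Negative binomial tests were not run, since the decimal commas of the table kept it from being declared as counts.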

Additional observations from a re-analysis of the deposited data

Results flagged for a closer look

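Of the collagen and laminin genes, 5 differed between the hairpins in the direct test (limma, adjusted p under 0.05), all higher in sh4: LAMB3 by 3.09 on the log2 scale, COL22A1 by 2.52, COL9A3 by 1.48, LAMB2 by 0.72 and LAMC1 by 0.61. Among the surrounding genes the same test found ITGA10 (5.05), ITGA1 (2.00), ITGA3 (1.49), ITGA6 (1.22), MATN3 (1.22), COLGALT2 (0.98) and FREM2 (0.85) higher in sh4 and LOXL2 (-1.97) lower. Of these surrounding genes, only ITGA10 and ITGA1 kept the difference in every alternative. Those of ITGA6 and FREM2 missed the threshold without the variance trend, among other alternatives. Each hairpin had 2 libraries from 1 pool of cells, so the hairpin and its pool cannot be told apart.

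Within the 4 knockdown libraries, 1 library stood far from the others for LAMB1 (the second sh4 library, whose gap to the next took 0.965 of the range) and for LAMA4 (the first sh4 library, 0.830), beyond the critical value of Dixon's test at the 95% level. Of 14 genes checked, about 1 in 20 groups would pass by chance. The 4 libraries carry different hairpins. LAMB1 remained higher under sh4 without the second sh4 library (limma adjusted p under 0.05).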

How the results depend on the processing

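None of the 54 single-gene results followed reversed under any alternative run. These had been picked for passing the adjusted p, so a change of sign was unlikely, and members that did not pass were not followed. The pooled count of 2 members became 1 with a pseudocount of 10, a minimum mean of 50 or limma-voom, 0 without the variance trend, and 7 as the mean of both hairpins in the fit with 3 groups. Leaving out 1 library gave 0 to 4. The sh4 count of 8 became 5 at a minimum mean of 50, which left 14 members tested, and 4 to 9 on leaving out 1 library, 4 without the second sh4 library. The sh8 count of 0 became 1 (LAMB1) under quantile normalization, upper quartile scaling or limma-voom, and was 0 to 1 on leaving out 1 library. The sh4 against sh8 count of 3 was 0 to 3 on leaving out 1 library and 4 without the minimum mean. Where 1 library of a hairpin was left out, the lone library was assumed to vary like the others. The GRASLND change of -0.85 gave -0.80 under upper quartile scaling (limma adjusted p = 0.0523) and -0.85 without the trend (limma adjusted p = 0.0805). Leaving out 1 library gave -0.99 to -0.73, and the adjusted p passed the threshold only without the first sh8 library. The causes were not tested.

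Deviations from the group means correlated at -0.08 to 0.34 in 6 pairs of libraries with the same replicate number. In a group of 2 libraries the deviations from its mean mirror each other, so these values cannot decide whether replicate numbers pair the libraries. With the replicate number as a block the counts were 0 pooled, 9 for sh4, 2 for sh8 (COL22A1 and LAMB1) and 3 between hairpins, and GRASLND gave -0.90 (limma adjusted p = 0.150).

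Of 54 single-gene results over 892 alternatives, none reversed and 160 alternatives missed the threshold. COL22A1, COL9A3, LAMB1, LAMB2 and LAMC1 under sh4 passed in every alternative in which they were tested. LAMB3 did so too, but it had met the minimum mean through its sh4 level, which favours such a rise. Depth limits the genes near the minimum, COL13A1 and LAMB3 among them.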
